A study of Mus musculus with 36 samples.

Results

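The 40 genes described here code for the machinery that copies the genome and divides the cell, and all 40 were found among the 37417 genes of the count table. They are a list of symbols chosen by function, with no threshold on a measured value but with earlier results of these data known, and fall into 7 roles: 2 proliferation markers, 5 G1 cyclins and kinases, 5 G1-S cyclins, kinase and E2F factors, 10 DNA replication genes, 9 G2-M cyclins, kinases and regulators, 6 genes of the spindle checkpoint and mitotic exit, and 3 genes of the centromere and spindle motors. RNA came from 36 subcutaneous tumors of wild-type mice aged 12 weeks, grown from MC38 colon carcinoma or PancO2 pancreatic carcinoma cells in C57BL/6J mice or from CT26 colon carcinoma cells in BALB/c mice. Mice of each model received control IgG, anti-PD-1 or anti-CTLA4 at 10 mg/kg, which gave 9 labelled groups of 4 libraries, and whole tumors were taken at the end stage. Each model rests on 1 cell line.

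A dividing cell passes G1, in which D-type cyclins activate Cdk4 and Cdk6, and enters S phase when cyclin E with Cdk2 frees the E2F factors that switch on replication genes. Late in the cycle the B-type cyclins, Cdk1, Foxm1 and the Plk1 and Aurora kinases drive mitosis, the Bub and Mad proteins hold chromosomes until they are attached, and Cdc20 with Ube2c directs the destruction of the cyclins. In a tumor the summed RNA of these genes is often read as a measure of how many cells are cycling. In a bulk tumor, fewer cells of a type and less RNA per cell cannot be told apart.

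Promoter sequences of RefSeq (GRCm38.p6) were matched by symbol to 32 of the 40 genes, as 35 windows of 300 bases that end 50 bases after the start site. How far mitotic and replication genes moved together across tumors differed by class, as described further on. The 250 bases before the start are shown for 4 mitotic genes and 2 replication genes. They are written 5′ to 3′ on the strand of the gene, with motif matches in capitals. The motifs were searched on both strands and may overlap: the cell cycle homology region (CHR, TTTGAA or TTTAAA), the CCAAT box (CCAAT) and the E2F site (TTTGGCGC, TTTCGCGC, TTTCCCGC or TTTGCCGC).
Ccnb1: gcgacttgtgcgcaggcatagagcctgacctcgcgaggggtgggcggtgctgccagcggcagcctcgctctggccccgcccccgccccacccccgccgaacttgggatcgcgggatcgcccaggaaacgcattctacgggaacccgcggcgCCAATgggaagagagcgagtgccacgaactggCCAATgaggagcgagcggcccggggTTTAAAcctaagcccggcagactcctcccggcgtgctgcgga
Ccnb2: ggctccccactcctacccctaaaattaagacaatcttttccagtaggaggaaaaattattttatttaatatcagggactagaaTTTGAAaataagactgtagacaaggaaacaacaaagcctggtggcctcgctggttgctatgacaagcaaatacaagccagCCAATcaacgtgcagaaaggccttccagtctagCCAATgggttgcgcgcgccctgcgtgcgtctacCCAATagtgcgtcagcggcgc
Cdk1: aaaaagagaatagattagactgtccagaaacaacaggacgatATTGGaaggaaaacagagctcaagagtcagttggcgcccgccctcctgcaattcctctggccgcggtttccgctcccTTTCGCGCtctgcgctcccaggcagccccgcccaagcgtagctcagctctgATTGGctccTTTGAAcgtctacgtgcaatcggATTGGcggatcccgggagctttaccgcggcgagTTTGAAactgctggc
Cdc20: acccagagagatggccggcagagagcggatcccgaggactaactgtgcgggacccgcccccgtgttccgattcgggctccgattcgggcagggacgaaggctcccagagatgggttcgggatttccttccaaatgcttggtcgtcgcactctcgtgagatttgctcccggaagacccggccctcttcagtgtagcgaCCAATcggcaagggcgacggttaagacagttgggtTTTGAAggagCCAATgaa
Mcm5: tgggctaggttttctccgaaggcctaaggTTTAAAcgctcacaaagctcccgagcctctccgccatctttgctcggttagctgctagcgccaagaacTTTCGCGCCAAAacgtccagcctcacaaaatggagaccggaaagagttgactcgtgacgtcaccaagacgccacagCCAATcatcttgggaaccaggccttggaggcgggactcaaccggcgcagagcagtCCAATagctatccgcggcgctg
Mcm6: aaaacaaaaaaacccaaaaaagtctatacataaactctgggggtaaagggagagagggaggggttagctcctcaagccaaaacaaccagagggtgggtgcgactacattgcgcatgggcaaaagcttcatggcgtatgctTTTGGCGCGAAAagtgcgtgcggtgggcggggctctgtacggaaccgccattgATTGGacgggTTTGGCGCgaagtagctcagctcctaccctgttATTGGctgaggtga
The windows shown lie at chr13:100786487-100786736 for Ccnb1, chr9:70421555-70421804 for Ccnb2, chr10:69352913-69353162 for Cdk1, chr4:118437344-118437593 for Cdc20, chr8:75109259-75109508 for Mcm5 and chr1:128359706-128359955 for Mcm6, of which only that of Mcm5 reads on the plus strand. Over all 35 windows of members, CCAAT was found in 27, against 37.4% of 32851 windows of all genes. TTTGAA was found in 13 windows, against 17.9% of all windows, and TTTAAA in 9, against 13.2%. Any of the E2F spellings was found in 8 windows, against 2.27% of all windows. A CHR spelling stood in the windows of 12 of 14 mitotic genes searched and 3 of 9 replication genes, and an E2F spelling in those of 1 of the same 14 and 5 of 9 replication genes. A match is a description of the letters and not of binding.

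The libraries fell into 3 classes of 12 by 2 genes that are no members. H2-Ea-ps, a class II histocompatibility gene that the C57BL/6J reference annotates as a pseudogene, was above 10 CPM (counts scaled by the total counts in genes of the library) in the first class, and Cp, the copper carrier ceruloplasmin, was above 1000 CPM in the Cp-high class. The last class had neither and is called the neither class. H2-Ea-ps ran from 32.8 to 134 CPM in its class and stayed at or below 0.08 CPM elsewhere, and Cp ran from 36.5 to 143 CPM in the H2-Ea-ps class, from 1389 to 2168 CPM in the Cp-high class and from 255 to 611 CPM in the neither class. The classes did not follow the labels: each model label was spread over all 3 classes, and H2-Ea-ps went against the strain label in 16 of 36 libraries. The library labelled PancO2 anti-PD-1 71, of the H2-Ea-ps class, stood apart with 7883106 counts in genes and 15.7% mitochondrial counts, where the other 35 had 11821687 to 41751023 counts and 2.80% to 4.35% mitochondrial counts. Its values are given separately, it was left out of every correlation, and class values for H2-Ea-ps below are over 11 libraries unless stated.

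The 40 genes together took the smallest share of counts in the Cp-high class. Their summed level had a median of 7218 CPM in the H2-Ea-ps class (6356 to 7704 CPM), 6717 CPM in the neither class (5928 to 7551 CPM) and 4787 CPM in the Cp-high class (3688 to 6159 CPM), and it was 5300.2 CPM in PancO2 anti-PD-1 71. By class median, the H2-Ea-ps class was highest for 20 genes and the neither class for the other 20, and the Cp-high class was lowest for 31. The same count over all genes was not made. By mean with all libraries kept, 38 of 40 were higher in the H2-Ea-ps than the Cp-high class, against 47.2% of all genes. In the neither class 33 were higher than in the Cp-high class, against 50.7% of all genes. All 40 passed every filter on low values, and the lowest count in any library was 67 reads, for E2f2. Over all 36 libraries the ratio of the highest to the lowest CPM ran from 1.73 for Kif11, a spindle motor, to 8.60 for Cdk6 and 11.3 for Ccnd2.

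**Figure D1:**
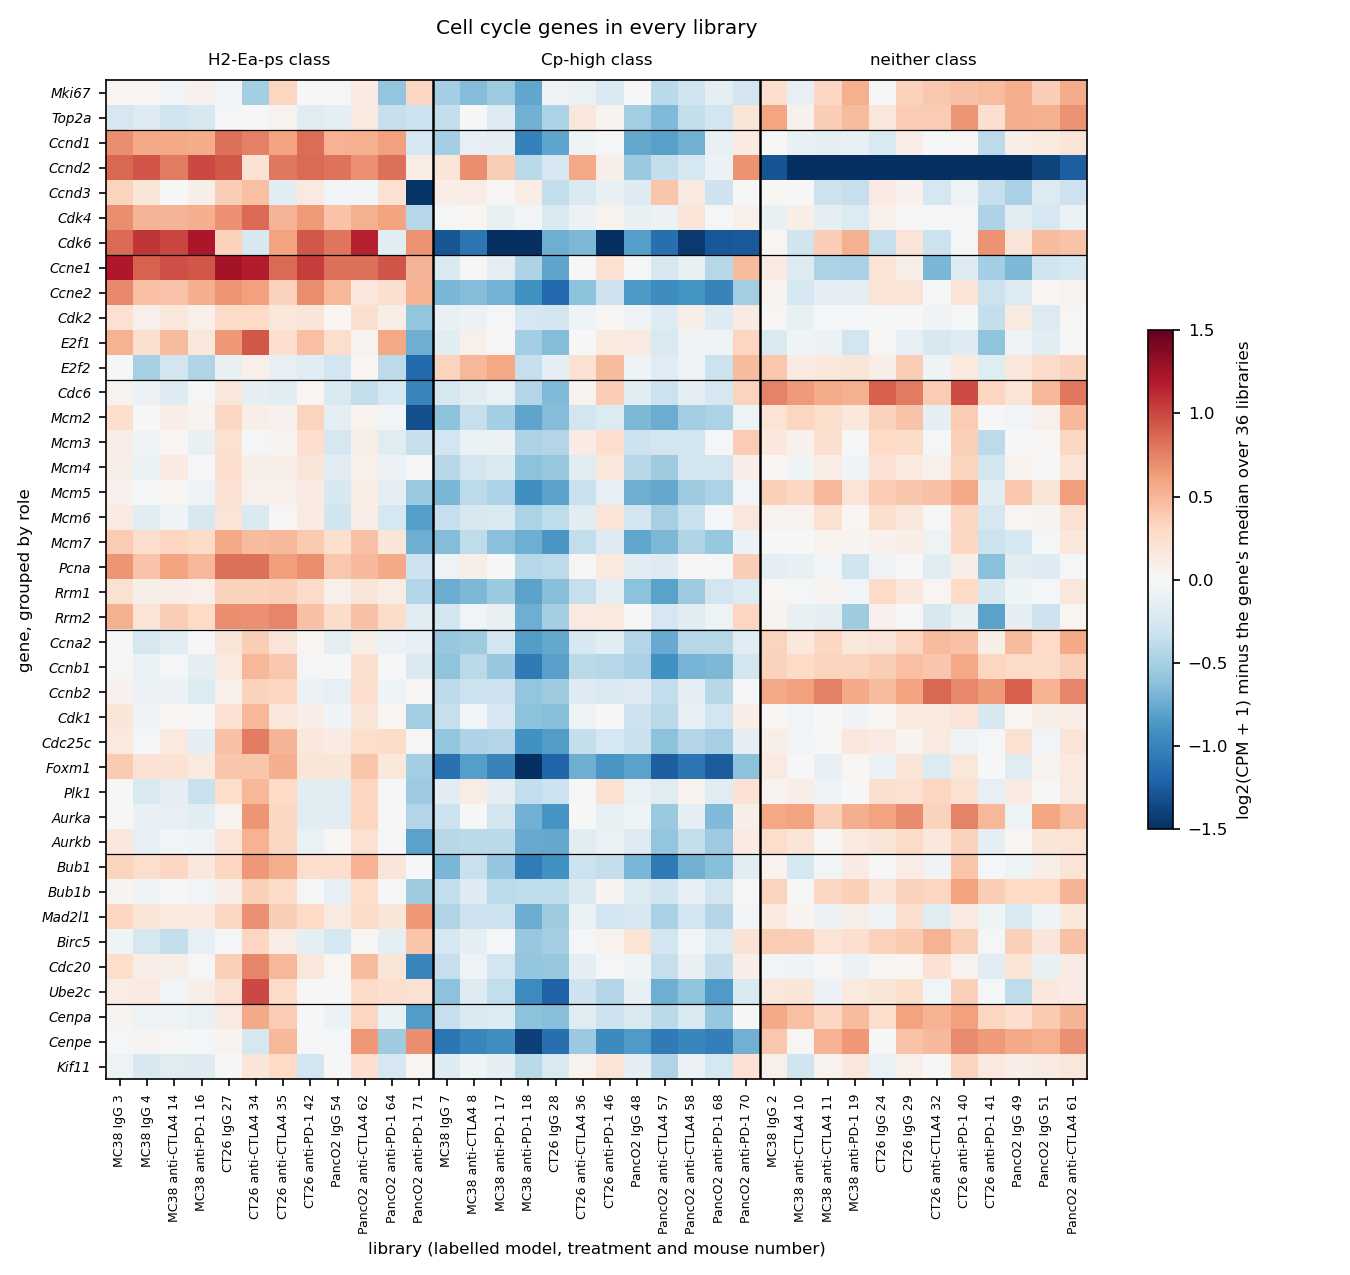
Level of each of the 40 genes (rows, by role) in each of the 36 libraries (columns, by class), as log2(CPM + 1) minus the gene's median over all libraries, with colors capped at 1.5 in either direction. Blue fills most of the Cp-high block, Ccnd2 is dark blue in all 12 libraries of the neither class, and PancO2 anti-PD-1 71 is the last column of the H2-Ea-ps block.

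The G1 genes were highest in the H2-Ea-ps class, all 5 of them by median. Ccnd1, the main D-type cyclin of these tumors, had a lowest, median and highest level of 865, 918 and 1085 CPM in the H2-Ea-ps class, of 299, 485 and 656 CPM in the Cp-high class and of 461, 605 and 690 CPM in the neither class. The 11 libraries of the H2-Ea-ps class lay above all 24 others, whereas PancO2 anti-PD-1 71, at 502 CPM, lay among them. Cdk4, a kinase partner of the D-type cyclins, was also highest in the H2-Ea-ps class, with 309 to 413 CPM in the H2-Ea-ps class, 196 to 262 CPM in the Cp-high class, 165 to 243 CPM in the neither class and 169 CPM in PancO2 anti-PD-1 71. Ccnd3, the third D-type cyclin, overlapped between all classes with medians of 53.6, 49.3 and 41.5 CPM in the H2-Ea-ps, Cp-high and neither classes.

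Ccnd2 and Cdk6 separated the classes most. Ccnd2 (chr6:127125162-127152193) ran from 167 to 286 CPM with a median of 256 CPM in the H2-Ea-ps class, from 97.0 to 234 CPM with a median of 144 CPM in the Cp-high class, and from 25.3 to 60.5 CPM with a median of 39.5 CPM in the neither class. No library of the neither class reached the lowest level of the other classes, and PancO2 anti-PD-1 71 had 155 CPM. Per kilobase of exon, Ccnd2 made up 11.7% of the D-type cyclin RNA in the H2-Ea-ps class and 14.01% in the Cp-high class, but 3.01% in the neither class (medians, with 2.27% to 4.36% over the 12 libraries of the latter). Cdk6 (chr5:3341485-3531008), the other kinase partner, had 24.04, 52.0 and 67.5 CPM as lowest, median and highest in the H2-Ea-ps class, 7.85, 11.3 and 17.5 CPM in the Cp-high class, and 22.3, 32.6 and 46.1 CPM in the neither class. Here the Cp-high class stood below every other library.

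Among the G1-S genes, the E-type cyclins were highest in the H2-Ea-ps class. Ccne1 ran from 31.2 to 42.1 CPM there, from 9.48 to 24.3 CPM in the Cp-high class and from 10.3 to 19.9 CPM in the neither class, so the H2-Ea-ps class did not overlap with either, and PancO2 anti-PD-1 71 had 24.9 CPM. Ccne2 had medians of 55.3, 22.2 and 38.9 CPM in the H2-Ea-ps, Cp-high and neither classes, so that Ccne1 made up 45.6% and 46.9% of E-type cyclin RNA per kilobase in the first 2 classes and 31.3% in the neither class. E2f1, an activator of replication genes, had medians of 55.4, 39.6 and 36.5 CPM in the same order. E2f2 ran the other way, with 17.96, 21.5 and 22.8 CPM, and Cdk2 had 64.4, 54.4 and 56.3 CPM.

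The 10 replication genes split evenly between the H2-Ea-ps and neither classes. Pcna, the sliding clamp of DNA polymerase, had 278, 318 and 373 CPM as lowest, median and highest in the H2-Ea-ps class, 155, 207 and 270 CPM in the Cp-high class and 135, 192 and 225 CPM in the neither class. Rrm2 and Rrm1, the subunits of ribonucleotide reductase, and Mcm7 and Mcm4, of the replicative helicase, were also highest in the H2-Ea-ps class by median (204, 270.0, 237 and 162 CPM). The order was close for Mcm4, whose mean with all libraries kept was 158 CPM in the H2-Ea-ps class and 161 CPM in the neither class. Cdc6, which loads that helicase at origins, had 44.5 CPM in the neither class against 26.3 CPM in the H2-Ea-ps and 25.9 CPM in the Cp-high class. The helicase subunits Mcm5, Mcm2, Mcm6 and Mcm3 were highest in the neither class too, with 167, 183, 242 and 152 CPM, and 8 of the 10 genes were lowest in the Cp-high class.

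The G2-M genes and both proliferation markers were lowest in the Cp-high class and mostly highest in the neither class by median. All 9 genes of the G2-M role had their lowest median in the Cp-high class, and 6 had their highest in the neither class. Ccnb1, a B-type cyclin, had 106 to 130 CPM with a median of 111 CPM in the neither class, 78.6 to 123 CPM with a median of 87.0 CPM in the H2-Ea-ps class and 41.1 to 71.8 CPM with a median of 57.4 CPM in the Cp-high class. Ccnb2 (chr9:70407692-70421547), the other B-type cyclin, had medians of 85.9, 52.6 and 44.2 CPM in that order, and its 77.3 to 104 CPM in the neither class lay above every other library. Foxm1, the factor that activates many mitotic genes, had 223 CPM in the neither class and 257 CPM in the H2-Ea-ps class against 107 CPM in the Cp-high class, whose highest library had 144 CPM. Ccna2 (242, 195 and 143 CPM in the neither, H2-Ea-ps and Cp-high classes) and Aurka (77.7, 52.0 and 45.1 CPM) kept the order of the B-type cyclins. Plk1 (60.5, 54.9 and 51.3 CPM) and Cdk1 (130, 136 and 106 CPM) had narrower gaps.

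**Figure D2:**
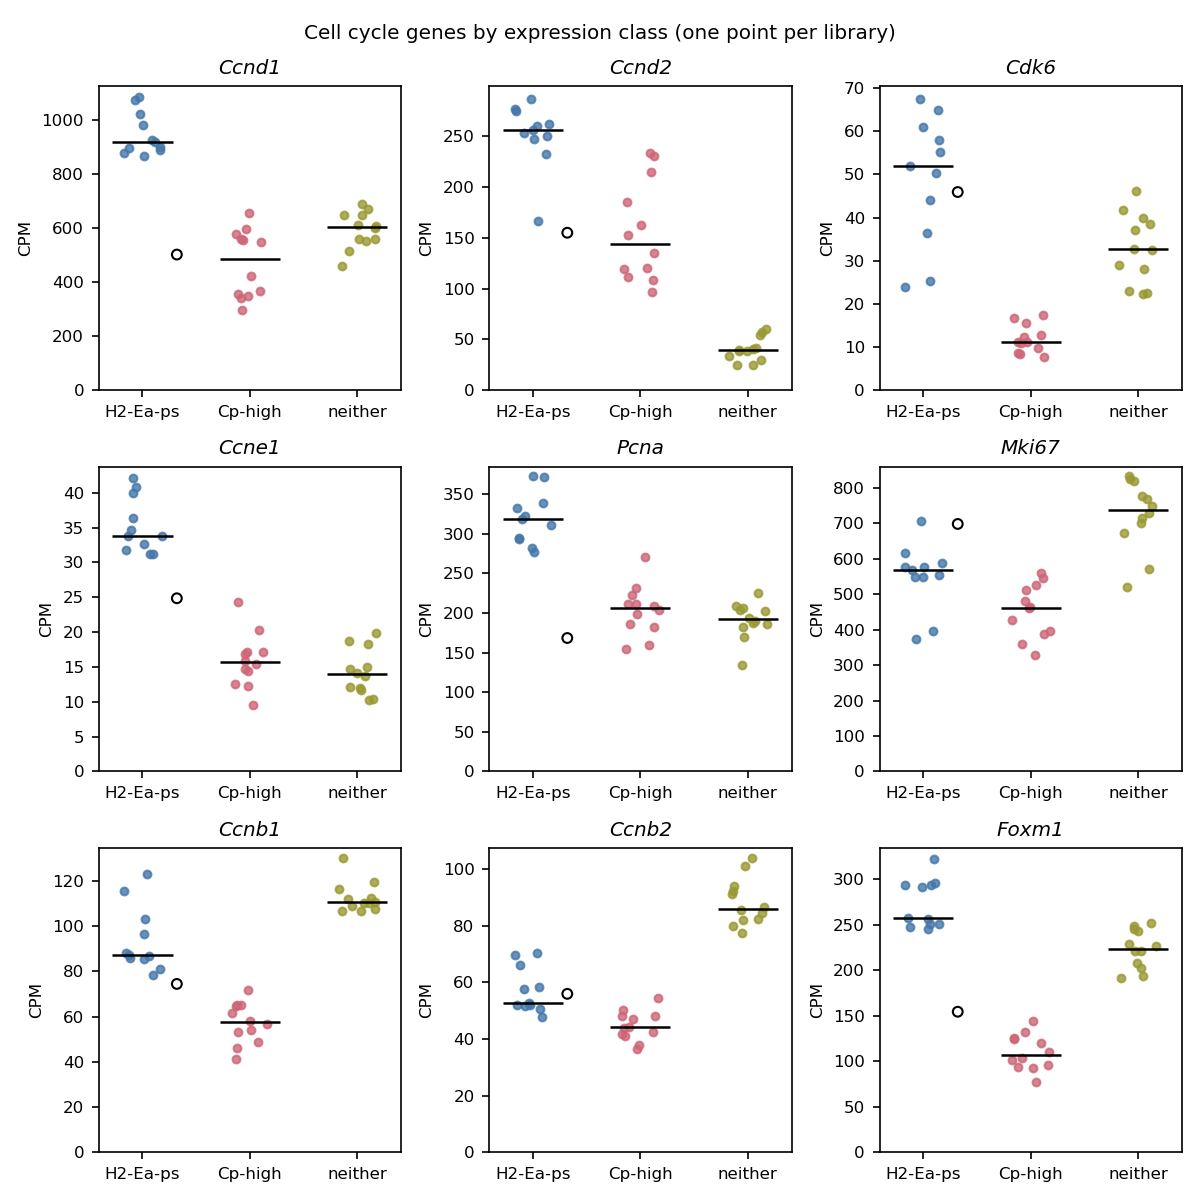
CPM of 9 genes in each library (points) by class, with the class median as a line over 11, 12 and 12 libraries and PancO2 anti-PD-1 71 as an open circle. Ccnd2 reaches at most 60.5 CPM in the neither class, Cdk6 at most 17.5 CPM in the Cp-high class, and the lowest library of the neither class has 77.3 CPM of Ccnb2, above all libraries of the other classes.

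Of the 6 genes of the checkpoint and mitotic exit, 5 were lowest in the Cp-high class. Bub1, a checkpoint kinase, had medians of 119, 98.0 and 60.1 CPM in the H2-Ea-ps, neither and Cp-high classes, and Mad2l1, which blocks Cdc20 until chromosomes are attached, had 117, 94.2 and 76.1 CPM. Bub1b and Birc5 (survivin) were highest in the neither class, with 134 and 112 CPM. Cdc20 had 87.7, 78.1 and 66.4 CPM and Ube2c 121, 123 and 77.2 CPM in the order of Bub1. Of the chromosome genes, Cenpe, the kinetochore motor, had 216 to 352 CPM in the neither class, 147 to 336 CPM in the H2-Ea-ps class and 80.6 to 146 CPM in the Cp-high class, where Kif11 overlapped between all classes (142 to 221, 142 to 214 and 127 to 202 CPM). Cenpa, the histone variant of centromeres, had medians of 101, 73.4 and 60.4 CPM in the neither, H2-Ea-ps and Cp-high classes. Mki67, the proliferation marker Ki-67, had 519, 738 and 833 CPM as lowest, median and highest in the neither class, 373, 569 and 705 CPM in the H2-Ea-ps class and 329, 461 and 560 CPM in the Cp-high class, and Top2a, topoisomerase II, had medians of 928, 604 and 550 CPM in that order. Summed over members, mitotic genes stood to replication genes as 1.32 in the neither class, 1.11 in the H2-Ea-ps class and 1.09 in the Cp-high class (medians, with ranges of 1.12 to 1.66, 0.968 to 1.31 and 0.940 to 1.25).

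Counted over all 36 libraries, 9 of the 40 genes lay above the Cp-high class in every library of the H2-Ea-ps class (Cdk6, Ccne1, Ccne2, Ccnb1, Foxm1, Bub1, Mad2l1, Ube2c and Cenpe), where 12.0% of 15217 genes above 1 CPM in at least 4 libraries did, and 0 lay below it, where 18.9% did. Without PancO2 anti-PD-1 71 the 9 became 14, and the share of all genes 16.9%. In the neither class 8 lay above the Cp-high class (Cdk6, Ccna2, Ccnb1, Ccnb2, Cdc25c, Foxm1, Cenpa and Cenpe), against 15.5% of all genes, and 1 lay below it (Ccnd2), against 14.6%. The H2-Ea-ps class lay above the neither class in 2 genes (Ccnd2 and Ccne1), against 9.19%, and below it in 2 (Cdc6 and Ccnb2), against 17%, and without PancO2 anti-PD-1 71 the first count became 7, against 13.4% of all genes. The median log2 difference of class means over the 40 genes was 0.45 for the H2-Ea-ps against the Cp-high class, 0.52 for the neither against the Cp-high class and 0.01 for the H2-Ea-ps against the neither class, and over all genes it was -0.04, 0.01 and -0.07. Since the classes were set from measured genes, no test was made between them.

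Immune and stromal RNA moved with the classes. All 20 genes of the immune content list (pan-leukocyte, macrophage and T cell genes) had a higher median in the Cp-high than in the H2-Ea-ps class, and 19 of 20 did so in the neither class. Their summed level was 1312 to 2079 CPM in the H2-Ea-ps class, 1825 to 3388 CPM in the Cp-high class and 2340 to 3331 CPM in the neither class. The 12 genes of the stromal content list (fibroblast and collagen genes) summed to 2049 to 4116, 4410 to 7399 and 6425 to 14135 CPM, with 9 and 10 of 12 medians above the H2-Ea-ps class. No gene of either list was at 0 in any library. The part of these lists in the class differences was not tested.

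Among inhibitors of the cyclin-dependent kinases, Cdkn1b (p27) was lowest in the H2-Ea-ps class, with 71.03 to 96.5 CPM against 147 to 194 CPM in the Cp-high class and 114 to 165 CPM in the neither class, and PancO2 anti-PD-1 71 had 86.8 CPM. Cdkn1a (p21) was highest in the H2-Ea-ps class, with 123 to 221 CPM, 17.9 to 123 CPM in the Cp-high class and 24.5 to 62.5 CPM in the neither class, but PancO2 anti-PD-1 71 had 98.6 CPM, inside the Cp-high range. Cdkn1c, Cdkn2a (the locus of p16 and p19 Arf) and Cdkn2b (p15) lay under all members, with class medians of 0.36 to 0.80, 0.10 to 0.46 and 0.36 to 0.74 CPM, and Cdkn2c (p18) had medians of 55.9, 45.7 and 49.1 CPM in the H2-Ea-ps, Cp-high and neither classes. Among other factors of the E2F family, the repressors E2f7 and E2f8 were highest in the H2-Ea-ps class, with medians of 84.5 and 148 CPM, against 24.9 and 88.9 CPM in the Cp-high class and 53.4 and 84.5 CPM in the neither class.

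Within a class the 40 genes varied together, though to a different degree in each. The median Pearson r of log2(CPM + 1) over the 780 pairs was 0.76 in the Cp-high class (12 libraries), 0.52 in the H2-Ea-ps class (11 libraries) and 0.37 in the neither class (12 libraries), where the median over all pairs of genes was 0.05, 0.02 and 0.01. These r are descriptions, since all pairs share the same libraries and their depth. Among the 18 mitotic genes the median r was 0.85 in the Cp-high, 0.86 in the H2-Ea-ps and 0.32 in the neither class, and among the 10 replication genes it was 0.90, 0.74 and 0.84. Between mitotic and replication genes it was 0.79, 0.43 and 0.36 in the same order.

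Single pairs did not all follow these medians, and some of those given here were picked as the highest or lowest of their role. Mcm3 and Mcm6, whose products sit in the same helicase, had r of 0.93 in the H2-Ea-ps class, 0.91 in the Cp-high class and 0.97 in the neither class. Mcm2 and Mcm5, of the same helicase, had r of 0.85, 0.98 and 0.50 in that order. In the neither class the former pair had the highest r among the replication genes and the latter the lowest. Ccnb1 and Ccnb2, the B-type cyclins, had r of 0.96 and 0.78 in the H2-Ea-ps and Cp-high classes and 0.12 in the neither class. There Ccnb2 and Aurka had r of -0.74, against 0.94 in the H2-Ea-ps and 0.87 in the Cp-high class, while Aurka and Ube2c had 0.97. Those were the lowest and the highest r among the mitotic genes of the neither class. Leaving out any 1 library left the r of Ccnb2 and Aurka in the neither class between -0.84 and -0.57.

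A few genes went their own way. Mki67 had a median r with the other 39 genes of only 0.01 in the H2-Ea-ps class, 0.19 in the Cp-high class and 0.00 in the neither class. Its r with Cenpe was 0.84, 0.53 and 0.95 in those classes and its r with Pcna -0.31, 0.09 and -0.21, and with Ccnd3 it was -0.64, -0.69 and -0.73. Cdk6 had a median r of -0.40, -0.03 and -0.29, and with Cdk4 it had r of -0.64, -0.48 and -0.83. In the H2-Ea-ps class that value was -0.36 without CT26 anti-CTLA4 34, which had 24.04 CPM of Cdk6 and 413 CPM of Cdk4, and in the Cp-high class it ranged from -0.63 to -0.31 with 1 library left out. Ccnd2 had a median r of -0.52 in the H2-Ea-ps class against 0.59 in the Cp-high and 0.26 in the neither class. Without CT26 anti-CTLA4 34, with 167 CPM of Ccnd2 and 222 CPM of Ube2c, the median of -0.52 became -0.20, and r between Ccnd2 and Ube2c went from -0.87 to -0.20. Without the same library the median r of Cdk6 in that class was -0.11 and that of Mki67 0.36. Without PancO2 anti-PD-1 64 instead they were -0.62 and -0.28. In the Cp-high class the median r of Mki67 ran from -0.06 to 0.39 with 1 library left out.

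**Figure D3:**
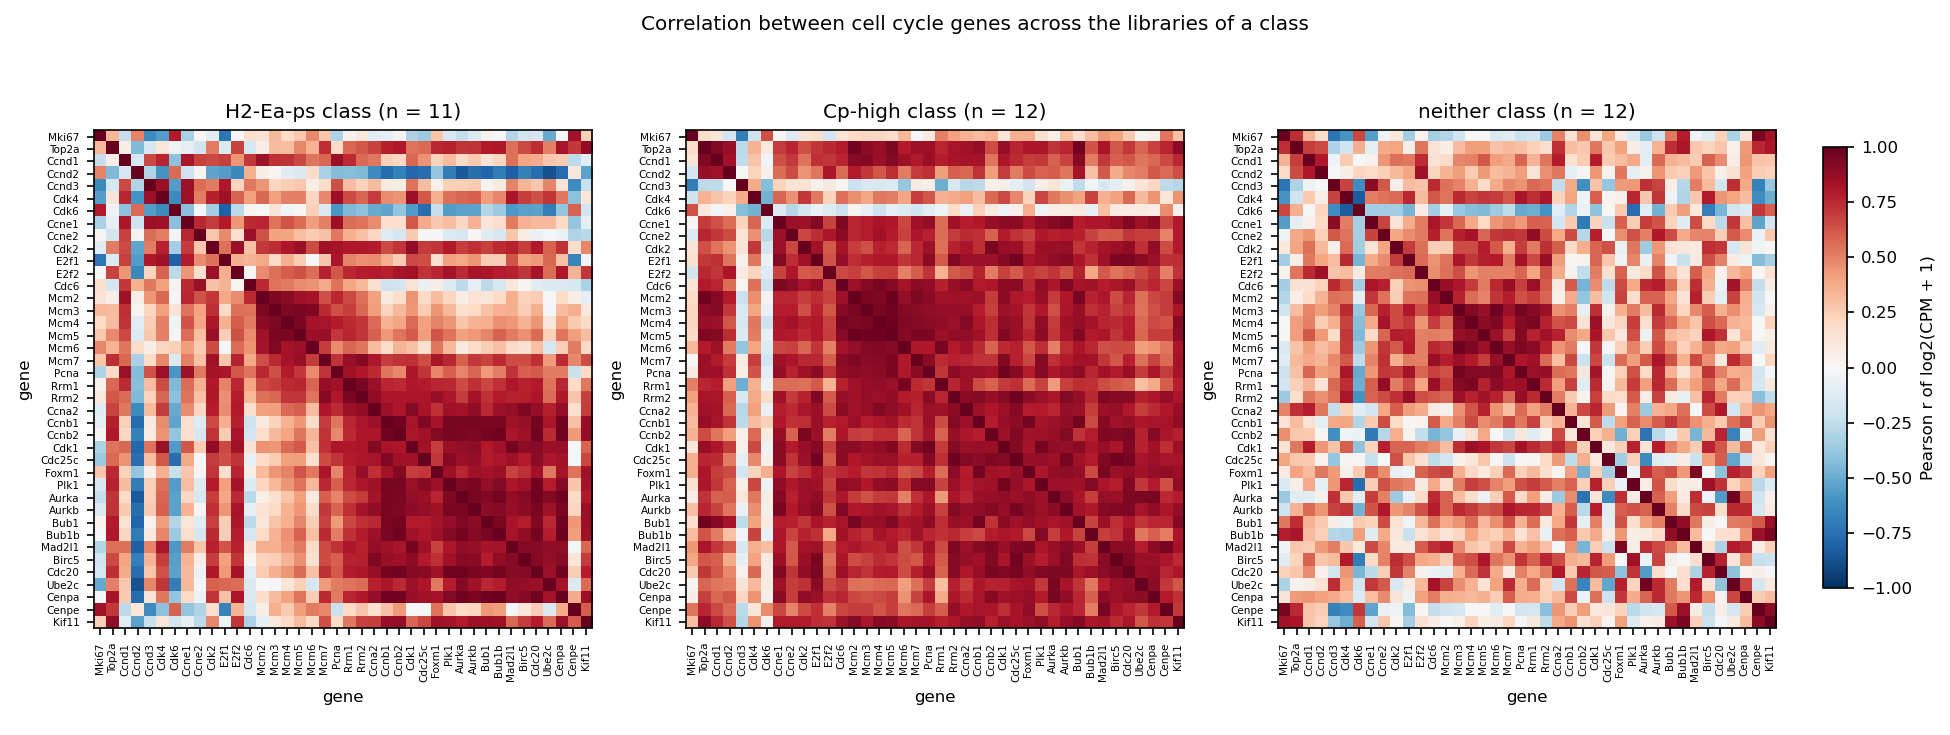
Pearson r of log2(CPM + 1) between each pair of the 40 genes across the libraries of a class, in the order of the roles on both axes. The Cp-high panel is red nearly throughout, the H2-Ea-ps panel has a red block of mitotic genes in its lower right, and the neither panel has its clearest block among the replication genes.

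Depth moved with the genes in the Cp-high and H2-Ea-ps classes, and mitochondrial counts moved against them in the Cp-high class. In the Cp-high class the median r of the 40 genes was 0.45 with log2 total counts and -0.66 with mitochondrial counts, where all genes had -0.08 and 0.15. With mitochondrial counts 38 of 40 were negative, against 41.9% of all genes. In the H2-Ea-ps class these medians were 0.36 and 0.11, against 0.03 and -0.01 over all genes, and 35 of 40 were positive with depth, where 47.3% of all genes were negative. In the neither class they were 0.09 and 0.20, against -0.02 and 0.07. Their part in the shared variation was not tested. Of 12171 genes compared, the 10 that are no members and had the highest mean r with the 40, averaged over classes, were Asf1b (0.63), Pola2 (0.63), Trip13 (0.62), Cdca8 (0.62), Uhrf1 (0.61), Zwilch (0.61), Gmnn (0.61), Phf19 (0.61), Melk (0.60) and Pold1 (0.60).

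Immune content did not give a relation past the threshold for any of the 40 genes within a class. The permutation test of Pearson's r (100000 permutations, two-sided, adjusted over all genes of the class) called 0 of 40 in each. In the H2-Ea-ps class 0% of 13452 genes were called, and an unadjusted p under 0.05 was reached by 4 members (Ccnd3, Cdk4 and Ccne1 negative, Cenpe positive) against 11.9% of all genes. In the Cp-high class 1.52% of 13937 genes were called, and 2 members reached an unadjusted p under 0.05 against 15.0% of all genes. In the neither class 1.96% of 13704 genes were called, and 0 members reached it against 7.72%. The median r of the members was -0.06, 0.06 and -0.08 in the H2-Ea-ps, Cp-high and neither classes, and 0.07, 0.03 and -0.03 over all genes.

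The widest r with immune content came from the Cp-high class. Ccnd3 had r of 0.81 with immune content there (permutation p = 0.00145, adjusted p = 0.0671), with Spearman's rho of 0.75 (permutation p = 0.00677, adjusted p = 0.190) and r of 0.75 without the 2 libraries farthest from the median. Mki67 had r of -0.74 (permutation p = 0.00573, adjusted p = 0.134), with rho of -0.83 (permutation p = 0.00148, adjusted p = 0.0992) and r of -0.65 without those 2. The slope test of edgeR called 1 member, Ccnd3 (adjusted p of 0.0237), and 1.80% of 13937 genes. In the H2-Ea-ps class the r of Ccnd3 was -0.65 and that of Mki67 0.43, and the difference between classes was not tested.

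Stromal content likewise gave 0 of 40 calls in each class. In the H2-Ea-ps class 0% of 13460 genes were called, and 2 members (Top2a and Cenpe, both positive) reached an unadjusted p under 0.05 against 10.4% of all genes. In the Cp-high class 0% of 13945 genes were called, and 1 member (Ccnd2, negative) reached it against 12.6%. In the neither class 1.10% of 13712 genes were called, and 5 members reached it (Mki67, Ccna2 and Ccnb2 negative, Ccnd3 and Aurka positive) against 24.4%. The signs were uneven in the Cp-high class, where 39 of 40 members were negative with a median r of -0.28, against 37.4% of all genes negative and a median of 0.15. In the H2-Ea-ps class 31 of 40 were positive with a median of 0.29, against a median of 0.11 over all genes, and in the neither class the median was 0.06 against 0.05. Since members move together, these signs are not 40 separate observations.

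Top2a in the H2-Ea-ps class had the widest value, with r of 0.77 (permutation p = 0.00376, adjusted p = 0.262), rho of 0.68 (permutation p = 0.0245, adjusted p = 0.720) and r of 0.44 without the 2 farthest libraries. Cenpe, with r of 0.67 there, had -0.26 without those 2. In the neither class Ccnd3 had r of 0.68 (permutation p = 0.0138, adjusted p = 0.121), rho of 0.47 (permutation p = 0.129, adjusted p = 0.380) and r of 0.52 without the 2 farthest. Mki67 had r of -0.65 there (permutation p = 0.0243, adjusted p = 0.149), rho of -0.60 (permutation p = 0.0452, adjusted p = 0.276) and r of -0.53 without them. The 57 or 58 pathway genes tested per class also gave 0 calls with either content.

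**Figure D4:**
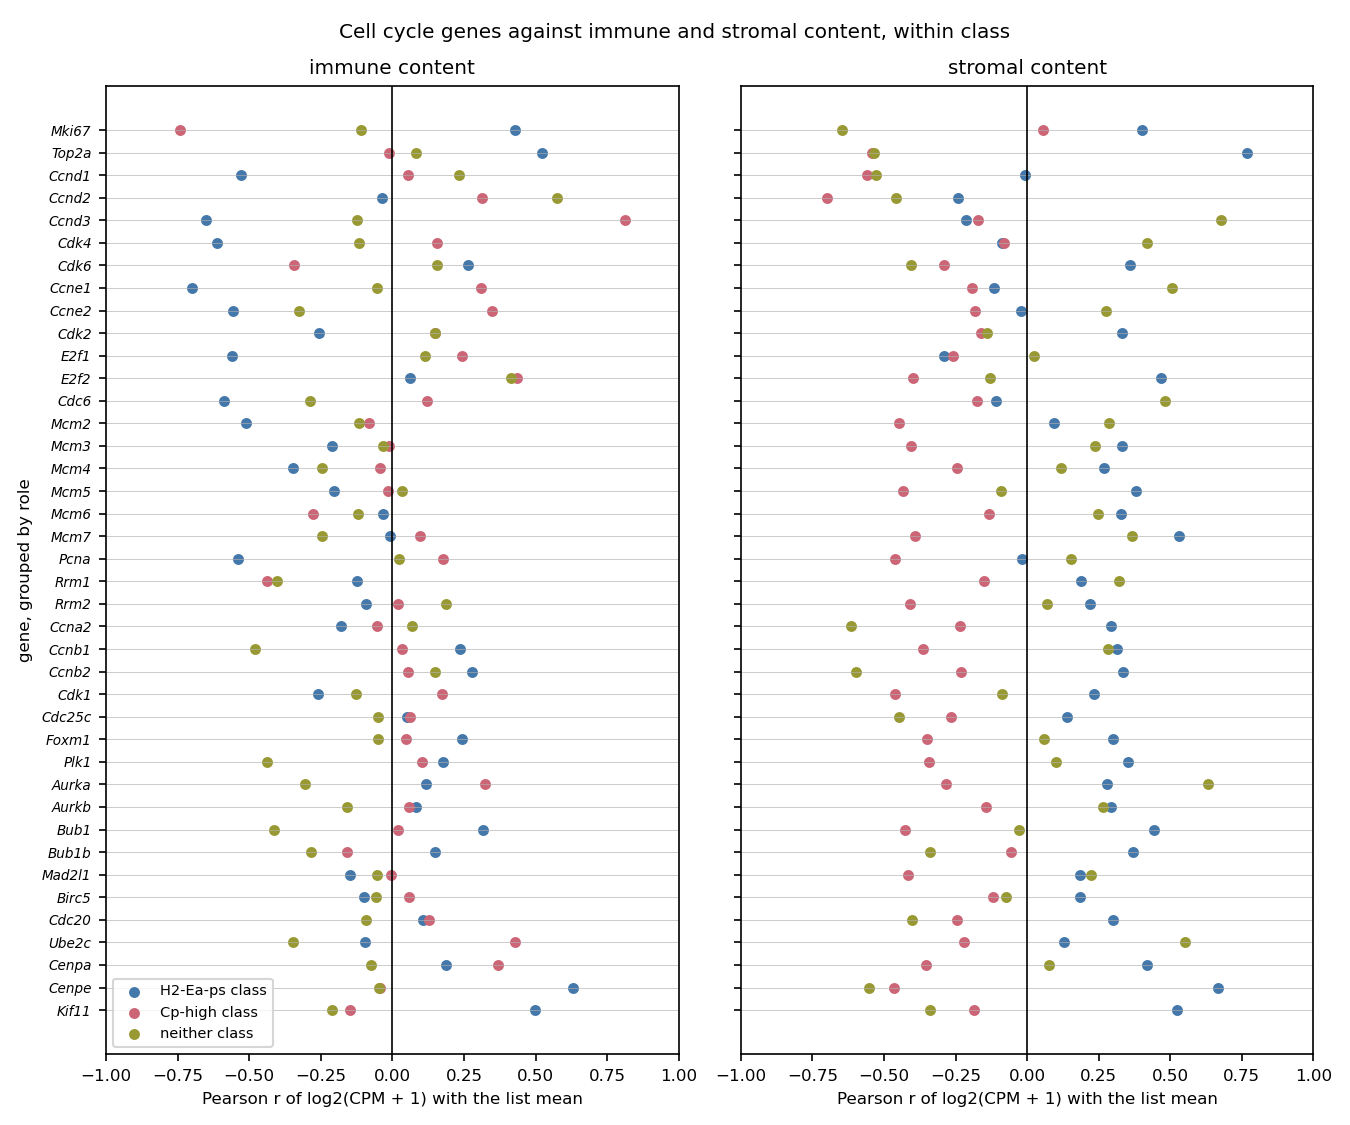
Pearson r of each of the 40 genes with the mean log2(CPM + 1) of the immune content list (left) and of the stromal content list (right), with 1 point per class (n = 11, 12 and 12 libraries). On the right, 39 of 40 points of the Cp-high class lie left of 0, and on the left Ccnd3 and Mki67 of the Cp-high class lie at 0.81 and -0.74.

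Comparisons by the labels asked whether end-stage tumors of the models differ under control IgG and whether checkpoint antibodies change them. Between models, the quasi-likelihood test of edgeR on the 12 IgG libraries called 0 of 40 members and 0% of 16510 genes in each comparison. For PancO2 against MC38, 1 member reached an unadjusted p under 0.05, where 0.563% of all genes did. It was Ccnd3, with 34.6, 42.1, 42.5 and 47.3 CPM in PancO2 and 49.8, 52.2, 55.6 and 61.7 CPM in MC38, which do not overlap (log2 fold change -0.44, SE 0.18, unadjusted p = 0.0339 and adjusted p = 0.99996 in edgeR). For PancO2 against CT26 and for CT26 against MC38 no member did, against 0.594% and 0.503% of genes. Each labelled group mixed classes: Ccnd2, for example, had 57.8, 163, 262 and 277 CPM in MC38 IgG, 25.3, 42.04, 121 and 274 CPM in CT26 IgG and 40.9, 54.3, 97.0 and 252 CPM in PancO2 IgG.

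Within a labelled model, edgeR called 0 of 40 members and 0% of genes for either antibody. No member reached an unadjusted p under 0.05 in these 6 comparisons, against 0.374% of 16323 genes under anti-PD-1 and 0.153% for the other antibody in MC38, 0.332% and 0.528% of 16285 genes in CT26, and 5.56% and 0.488% of 16410 genes in PancO2, whose anti-PD-1 group held the library that stood apart. In MC38, all 40 log2 fold changes of anti-PD-1 against IgG were negative, with a median of -0.24 against -0.001 over all genes. With class as a term, 3 of 40 were positive there. Mki67 had 397, 577, 578 and 673 CPM in MC38 IgG and 329, 388, 589 and 820 CPM in MC38 anti-PD-1, so the ranges overlapped fully. The MC38 IgG group held 2 libraries of the H2-Ea-ps class and 1 of the Cp-high class, and MC38 anti-PD-1 held 1 and 2.

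With class as a term and PancO2 anti-PD-1 71 left out, the 35 libraries were compared by treatment label. Since strain labels and H2-Ea-ps disagree in 16 of 36 libraries, the treatment labels may be misassigned too, and these comparisons are of labels rather than a bound on treatment. For anti-PD-1 against IgG, edgeR called 0 of 40 members and 0% of 17114 genes, and 0 members against 4.22% of genes had an unadjusted p under 0.05. The 40 log2 fold changes ran from -0.10 for Cdk6 (SE 0.17) to 0.12 for Ccnd1 (SE 0.12), and Mki67 had -0.05 (SE 0.10). For anti-CTLA4 against IgG it called 0 of 40 and 0% again, and 1 member reached an unadjusted p under 0.05 against 4.03% of genes. That was Ccnb2, with a log2 fold change of 0.16 (SE 0.06, unadjusted p = 0.0208 and adjusted p = 0.9998 in edgeR), and the 40 values ran from -0.11 for Ccne1 to 0.18 for Aurka. DESeq2 and limma-voom called 0 of 40 members in all of these comparisons too.

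**Figure D5:**
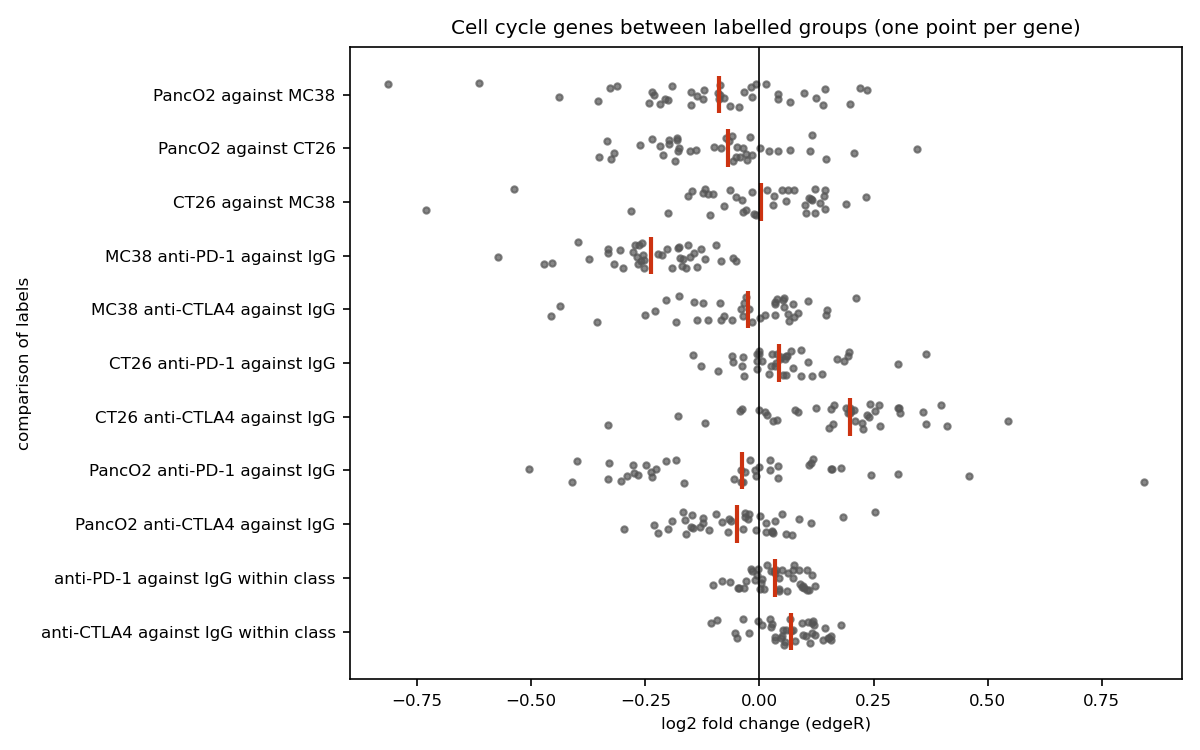
Log2 fold change in edgeR of each of the 40 genes (points) in each of the 11 comparisons of labels, with the median of the 40 as a red line. The points of the 2 comparisons with a class term lie between -0.11 and 0.18, and all 40 points for MC38 anti-PD-1 lie below 0.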

How the data were processed

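Total RNA of 36 tumors was poly-A selected and sequenced, 1 library per tumor (Illumina TruSeq V2 per the labels). The study names a stranded KAPA kit in its methods on unique mutations. The deposited values are raw read counts by Ensembl gene ID. The authors had mapped reads to GRCm38/mm10 with TopHat and Bowtie2 and counted them with HTSeq (07.2), after FastQC (0.11.5). HTSeq leaves out reads with several positions, so genes with close copies are undercounted. Which kit was used is therefore unclear, and the strand setting of the counting and the Ensembl release are not given in the sources used here. The 5 summary lines that name no gene held 44.8% to 63.4% of reads in 35 libraries and 86.5% in PancO2 anti-PD-1 71, and were left out of totals.

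CPM was computed over the 37417 gene rows, of which 32608 had a symbol. Levels per kilobase of exon used summed exon length (GENCODE M21). Labels were compared by edgeR (4.0.16, TMM, filterByExpr, quasi-likelihood), with DESeq2 (1.42.0) and limma-voom (3.58.1) as alternatives, adjusted over all genes by Benjamini-Hochberg at 0.05. Content scores are means of log2(CPM + 1) over a list. Each gene above 1 CPM in at least 4 libraries of a class was correlated with them by permutation (numpy 2.4.6, Python 3.11.15), leaving out genes of the list. On simulated data for PancO2 against MC38, edgeR recovered 195 of 200 changed genes with 4 false calls among 16274. The permutation test, also on simulated data, recovered 200 of 200 with 8 false calls among 13000. Both counts hold for the simulated data only, where the planted effects were larger than any found for the members between labels or with content. Recovery in the measured libraries, whose labelled groups mix classes, was not tested. The members, classes and lists were chosen with earlier results of these data known. Named genes are the 40 members, genes of 6 pathway lists (60 of 61 listed were in the table, and Cdkn2d was not analysed here) that were called or lay outside the members' levels, the 10 genes most like the members, and the 2 that set the classes. Of those pathway lists, Cdkn1a, Cdkn1b, Cdkn2c, E2f7, E2f8, Lin9, Lin54 and Mybl2 were named after their values were seen. Replicates are separate mice by number. The number of libraries and their depth limit the precision. Ranges of levels are the lowest and highest library and not confidence intervals.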

Additional observations from a re-analysis of the deposited data

Results flagged for a closer look

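Of 36 sets of 4 libraries (Mki67, Pcna, Ccnb1 and Ccnd1 in the 9 labelled groups), 4 had 1 library far from the other 3 by Dixon's criterion. Chance would give about 1.8 for independent sets from groups of 1 class. These sets share libraries and their groups mix classes, so 1.8 is no baseline for them. Mki67 was 715 CPM in CT26 IgG 29, of the neither class, against 545 to 571 CPM in the other CT26 IgG libraries. Pcna was 278 CPM in PancO2 IgG 54, against 183 to 188 CPM, and this was the 1 library of the H2-Ea-ps class in its group. Ccnb1 was 65.4 CPM in CT26 anti-CTLA4 36, the 1 Cp-high library of its group, against 116 to 123 CPM. Ccnd1 was 897 CPM in MC38 anti-CTLA4 14, the 1 library of the H2-Ea-ps class in its group, against 552 to 558 CPM.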

How the results depend on the processing

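No paired analysis was possible because mouse numbers are unique to each library. In the 11 comparisons of labels, 0 of 40 members were called under every alternative run, which were other size factors, no filter, DESeq2, limma-voom, class or model as a term, 1 fit of all groups and each library left out. With 1 library left out, the log2 fold change of Mki67 within class ran from -0.075 to 0.0013 for anti-PD-1, which turned its sign once, and from -0.09 to -0.01 for anti-CTLA4. For immune content, the edgeR slope called 1 member in the Cp-high class (Ccnd3), and leaving out 1 library called 0 to 1 there (Ccnd3 without PancO2 anti-CTLA4 58) and 0 in the other classes. For stromal content, the endothelial list alone called 1 in the Cp-high class (Cenpa, with 8.55% of all genes), residuals from treatment means called 2 in the neither class (Mki67 and Ccnd3, with 13.5% of all genes), and leaving out 1 library called 0 to 1 in the neither class (Ccnd1 without CT26 anti-PD-1 41) and 0 elsewhere. Signs of r turned for Cenpe with T cell genes alone in the H2-Ea-ps class (-0.23), for Ccnb1 and Ccnd2 with macrophage genes alone in the neither class (0.12 and -0.12), for Mki67 and Ccnd3 with endothelial genes alone in the neither class (0.16 and -0.015), for Mki67 with stromal residuals in the Cp-high class (-0.092) and for E2f1 with stromal content in the H2-Ea-ps class without the 2 farthest libraries (0.30). With 1 library left out, E2f1 ran from -0.51 to 0.024 and Mki67 with stromal content in the Cp-high class from -0.20 to 0.52. By class, TMM scaling gave 4 members above and 1 below for the H2-Ea-ps against the neither class (12.1% and 13.7% of all genes), and leaving out PancO2 anti-PD-1 71 gave 7 above there (13.4%) and 14 above the Cp-high class (16.9%). The median r between members ran from 0.48 to 0.57 in the H2-Ea-ps class, from 0.70 to 0.81 in the Cp-high class and from 0.27 to 0.42 in the neither class with 1 library left out, an alternative added after seeing the data, as were the same for the median r of single members. The cause of these changes was not tested.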

Other observations

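Some genes listed for the DREAM complex and for origin firing, which act with the members but are not among them, also differed between classes. For the neither against the Cp-high class, the median log2 difference was 0.35 over the DREAM and MuvB genes and 0.90 over the origin genes. It was 0.52 over the members. For the H2-Ea-ps against the Cp-high class these medians were 0.23, 0.70 and 0.45. Mybl2, the B-Myb factor of mitotic genes, had medians of 97.9 CPM in the neither class, 42.7 CPM in the H2-Ea-ps class and 29.9 CPM in the Cp-high class, and its lowest library of the neither class (65.8 CPM) lay above the highest of the others (54.9 CPM). Lin37 and Lin52, subunits of the MuvB core, ran the other way, with 7.80 and 10.3 CPM in the neither class, 12.1 and 13.04 CPM in the H2-Ea-ps class and 12.8 and 14.4 CPM in the Cp-high class. Of the 6 listed DREAM and MuvB genes, 2 lay above the Cp-high class in every library of the neither class (Lin54 and Mybl2). Lin37 and Lin52 were the 2 that lay below it. All genes had 15.5% above and 14.6% below. In the H2-Ea-ps class Lin9 and Lin54 lay above it, against 12.0% of all genes, and 0 lay below, against 18.9%. Of 12 origin genes, 8 lay above the Cp-high class in every library of the neither class, among them Orc1 (14.2 against 7.67 CPM) and Gins3 (22.7 against 10.5 CPM), against 15.5% of all genes, and 5 did so in the H2-Ea-ps class, against 12.0%. Of 18 kinetochore and spindle genes, 9 lay above the Cp-high class in every library of the H2-Ea-ps class and 5 in the neither class, against the same 12.0% and 15.5% of all genes. Cenpk, a kinetochore gene, had 22.6 CPM in the neither class and 12.8 CPM in both others. No gene of these lists was called in any comparison of labels by edgeR (0 of 59 or 60 tested), with 0 to 2 at an unadjusted p under 0.05.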
